A study of Mus musculus with 12 samples.

Results

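The 10 mouse genes described here belong to the leukemia inhibitory factor (LIF) pathway and were measured in embryonic stem cells with a knockdown of Set: the cytokine Lif, the receptor genes Lifr, Il6st, Il6ra, Cntfr and Osmr, the kinases Jak1 and Jak2, the transcription factor Stat3 and its feedback inhibitor Socs3. The genes were chosen by symbol. Each was represented by its annotated probe set with the highest mean over 12 arrays, and all 10 were found among the 19938 genes with a probe set of their own. In total 11 probe sets carried a member symbol, Socs3 having a second one.

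R1 is a mouse embryonic stem cell line, here grown on gelatin. The groups were RA KD1, RA KD2, RA Scrambled, ESC KD1, ESC KD2 and ESC Scrambled, with 2 arrays each, called biological replicates in the labels, and 12 arrays in all. KD1 and KD2 are knockdown clones of Set, whose protein SET is a histone chaperone, and Scrambled cells were infected with a scrambled control, and the labels call these lines clones, so clone and knockdown cannot be told apart. ESC cells grew in 15% serum with 1000 U/ml LIF, while RA cells were kept without LIF in 10% serum for 4 days, with retinoic acid at 1 µM. Retinoic acid, serum and LIF therefore changed together between RA and ESC and cannot be told apart.

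LIF binds a receptor made of LIFR, the product of Lifr, and gp130, the product of Il6st. JAK kinases bound to this receptor phosphorylate STAT3, which enters the nucleus and helps to hold mouse stem cells in the naive state. STAT3 also raises SOCS3, which binds gp130 and the JAKs and damps the signal. IL-6, ciliary neurotrophic factor and oncostatin M use gp130 as well, through their own receptors encoded by Il6ra, Cntfr and Osmr. An array measures RNA, so none of the values below reports phosphorylated STAT3 or receptor protein.

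RefSeq start windows (build GRCm38.p6; 250 bases before to 50 after an annotated start) were held for all 10 genes, 16 windows in all, because Cntfr and Lifr have several starts. Windows were searched for the STAT motif TTCNNNGAA, which reads the same on both strands, and for the nuclear receptor half-site AGGTCA on either strand. The STAT motif was in 8.3% of all 32851 windows and in 1 of the 16 member windows, that of Socs3. The half-site was in 16.3% of all windows and in 1 member window, that of the first Lifr start, so no match overlapped another. Both are shown because Socs3 and Lifr carry the main results, with the motif in capitals; a match describes letters and is not a measured binding site. Upstream stretches of Jak2 and Lif are shown next to each other, with CG dinucleotides in capitals, because Jak2 passed the test in both lines and Lif in KD1 alone.
Socs3, chr11:117969501-117969530, minus strand: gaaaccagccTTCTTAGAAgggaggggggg
Lifr, chr15:7129322-7129351, plus strand: cggTGACCTtgcaaggctggccgcgcgacc
Jak2, chr19:29251683-29251802, plus strand: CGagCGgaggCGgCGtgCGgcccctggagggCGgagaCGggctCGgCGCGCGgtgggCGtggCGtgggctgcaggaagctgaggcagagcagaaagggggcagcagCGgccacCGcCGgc
Lif, chr11:4257448-4257567, plus strand: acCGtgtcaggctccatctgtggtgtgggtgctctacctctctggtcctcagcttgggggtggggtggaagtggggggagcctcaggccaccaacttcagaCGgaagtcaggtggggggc
The 120 bases before the Jak2 start hold 16 CG dinucleotides and those before the Lif start hold 2. Over 250 bases before the start the counts were 37 for Jak2 and 6 for Lif. Lifr and Il6ra also passed in KD1 alone. Il6ra held 18, and Lifr held 43 before its first start and 3 before its second. Among the other members that passed in both lines, Osmr held 18, Jak1 19, Il6st 26 and Socs3 26, and Cntfr from 3 to 37 over its starts. Any link between CG count and the calls was not tested.

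All values are the authors' log2 values, on which 1 unit is a doubling of signal. The replicate 2 array of each KD2 group went against its label. That of RA KD2 correlated on average at 0.986 with ESC-labelled arrays and at 0.952 with the remaining RA-labelled ones, and that of ESC KD2 at 0.986 with RA-labelled arrays and at 0.952 with the remaining ESC-labelled ones. Comparisons of KD1 with Scrambled were therefore fitted on the 8 arrays of those lines, and KD2 results are given both with all 12 arrays and without these 2. The Set signal, from a probe set shared with BC085271, lay between 11.16 and 11.99 in 4 arrays labelled RA knockdown, against 12.27 and 12.29 in RA Scrambled. It lay between 11.87 and 12.15 in 4 arrays labelled ESC knockdown, against 12.71 and 12.93 in ESC Scrambled. The 11.99 and the 11.87 came from the KD2 replicate 2 arrays that went against their labels. Replicate 1 of KD2 read 11.70 in RA and 12.15 in ESC. Stem cell markers (Pou5f1, Nanog, Zfp42, Esrrb) fell in RA against ESC in KD1 and in Scrambled. In each line 4 of 4 fell, where 20.8% of all genes were called lower. The labelled states of those 8 arrays thus had the markers of their labels.

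**Figure D1:**
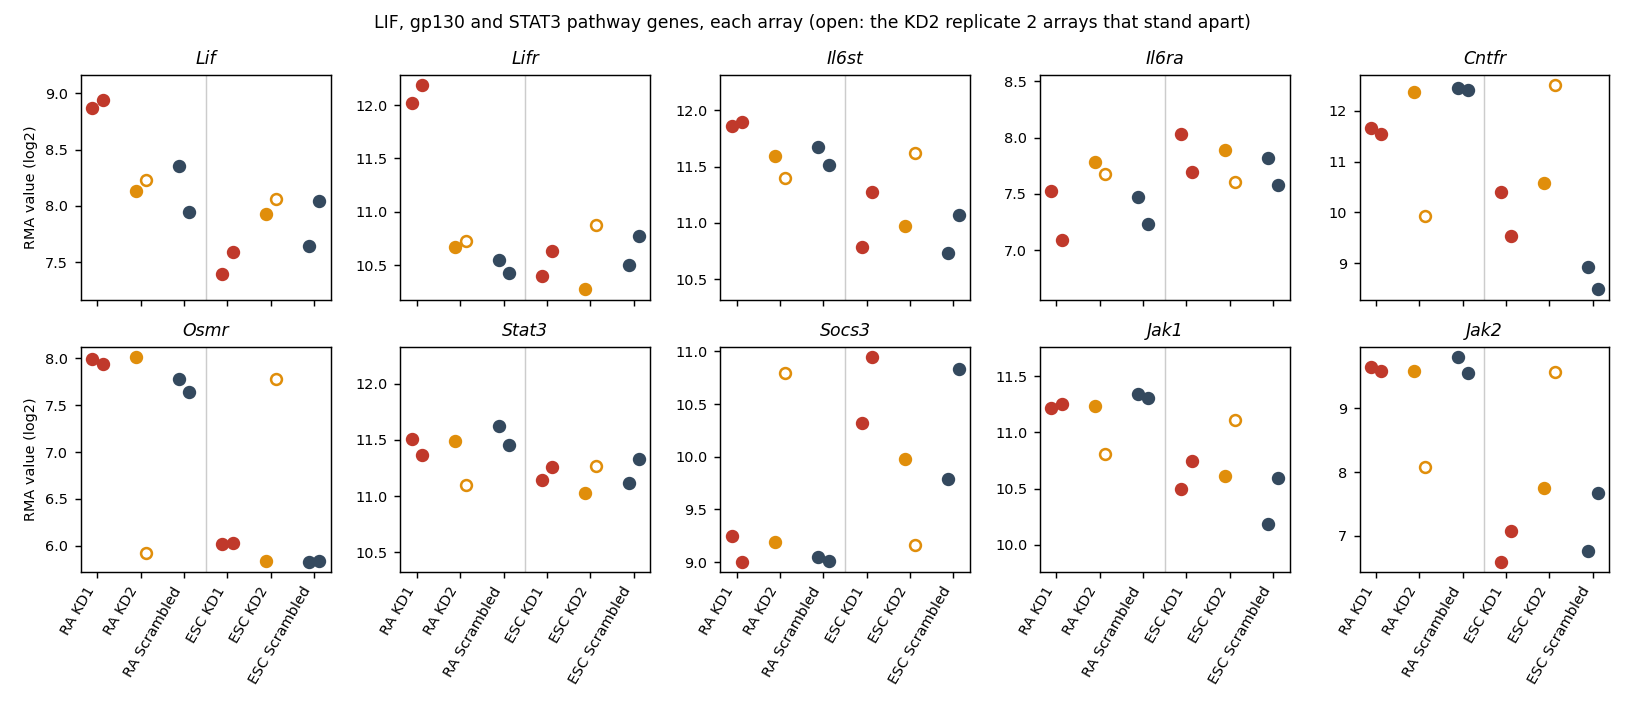
RMA log2 values (vertical axes) of the 10 genes in every array, by group (horizontal axes), with RA groups left of ESC groups; each point is 1 array, and open points are the KD2 replicate 2 arrays that went against their labels. Lifr stands at 12.02 and 12.19 in RA KD1 and below 11 in all other arrays, and the open points of Osmr, Jak2 and Socs3 lie with the opposite state.

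Among the receptor genes, Cntfr and Osmr were higher in RA than in ESC in both lines. Cntfr, the ligand-binding receptor for ciliary neurotrophic factor, read 12.44 and 12.40 in RA Scrambled, against 8.93 and 8.48 in ESC Scrambled. This was a 13.1-fold rise, 3.71 on the log2 scale (SE 0.25, adjusted p = 6.12e-06 by limma, n = 2 arrays each). In KD1 Cntfr read 11.65 and 11.54 in RA, against 10.39 and 9.53 in ESC, a rise of 1.63 (SE 0.25, adjusted p = 0.000746 by limma). The groups did not overlap in either line, and the rise was smaller in KD1, as tested below.

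Osmr, the oncostatin M receptor, read 7.78 and 7.64 in RA Scrambled, against 5.83 and 5.83 in ESC Scrambled. The difference was 1.88 (SE 0.10, adjusted p = 2.11e-06 by limma). The ESC values lay below the median of every array, and no detection call was used here, so Osmr was not shown to be above background in ESC and no fold is given. RA KD1 arrays read 7.998 and 7.942 for Osmr, against 6.02 and 6.03 in ESC KD1, a difference of 1.95 (SE 0.10, adjusted p = 2.05e-06 by limma). For Osmr, KD1 minus Scrambled of the difference was 0.07, with a 95% interval from -0.26 to 0.40. Because the ESC values of both lines may be background, this does not show that the rises were of the same size.

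Il6st, which encodes the shared subunit gp130, rose less. It read 11.67 and 11.52 in RA Scrambled, against 10.74 and 11.07 in ESC Scrambled (0.69, SE 0.16, adjusted p = 0.00757 by limma). In KD1 it read 11.86 and 11.90 in RA, against 10.79 and 11.27 in ESC (0.85, SE 0.16, adjusted p = 0.00283 by limma). The Scrambled call was lost without RA Scrambled replicate 1 (0.61, adjusted p = 0.0617 by limma).

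Lifr, the subunit that pairs with gp130 for LIF, did not follow this pattern in Scrambled cells. It read 10.55 and 10.43 in RA Scrambled, against 10.50 and 10.78 in ESC Scrambled, and the groups overlapped (-0.15, SE 0.13, adjusted p = 0.399 by limma). In KD1 the same probe set read 12.02 and 12.19 in RA, against 10.40 and 10.63 in ESC. This 3.01-fold rise was 1.59 on the log2 scale (SE 0.13, adjusted p = 1.84e-05 by limma).

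Il6ra, the IL-6 receptor, moved the other way. RA KD1 arrays read 7.53 and 7.09, against 8.03 and 7.69 in ESC KD1, a fall of 0.55 on the log2 scale (SE 0.19, adjusted p = 0.0409 by limma). RA Scrambled arrays read 7.47 and 7.23, against 7.82 and 7.58 in ESC Scrambled (-0.35, SE 0.19, adjusted p = 0.171 by limma). The 7.09 in RA KD1 lay below the median of every array, and the 7.23 in RA Scrambled lay within the range of array medians. Il6ra was therefore not shown to be above background in those arrays. The KD1 call for Il6ra was lost without ESC KD1 replicate 1 (-0.38, adjusted p = 0.229 by limma), without RA KD1 replicate 2 (-0.33, adjusted p = 0.257 by limma) and with arrays centred on their median (adjusted p = 0.0566 by limma).

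The cytokine gene Lif passed the test in KD1 and not in Scrambled. RA KD1 arrays read 8.87 and 8.94 for Lif, against 7.39 and 7.60 in ESC KD1, a 2.66-fold rise (1.41 on the log2 scale, SE 0.18, adjusted p = 0.000276 by limma). RA Scrambled arrays read 8.36 and 7.95, against 7.64 and 8.04 in ESC Scrambled, and these groups overlapped (0.31, SE 0.18, adjusted p = 0.211 by limma). Endogenous Lif RNA is distinct from the LIF supplied in the ESC medium, which the array does not measure.

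Both kinase genes rose in RA. Jak2, a kinase used by gp130 and by several other cytokine receptors, read 9.81 and 9.56 in RA Scrambled, against 6.76 and 7.68 in ESC Scrambled (2.46, SE 0.28, adjusted p = 0.000108 by limma). In KD1 it read 9.65 and 9.59 in RA, against 6.59 and 7.08 in ESC (2.79, SE 0.28, adjusted p = 5.99e-05 by limma). The ESC values 6.76, 6.59 and 7.08 lay below the median of every array. Jak2 was therefore not shown to be above background in those arrays, and no fold is given. The RA arrays of Jak2 lay close together, its ESC arrays were more spread, and the states did not overlap in either line.

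Jak1, the kinase on which gp130 signalling depends most, changed less. Its values were 11.34 and 11.31 in RA Scrambled, against 10.18 and 10.60 in ESC Scrambled (0.93, SE 0.14, adjusted p = 0.000697 by limma). They were 11.22 and 11.26 in RA KD1, against 10.50 and 10.74 in ESC KD1 (0.62, SE 0.14, adjusted p = 0.00733 by limma). No RA array of Jak1 in these lines reached down to an ESC array, though the KD1 call was lost without ESC KD1 replicate 1 (adjusted p = 0.0566 by limma) or RA KD1 replicate 2 (adjusted p = 0.0512 by limma).

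Stat3, the transcription factor of the pathway, stayed within a narrow range. Its RA Scrambled arrays read 11.62 and 11.45, against 11.12 and 11.33 in ESC Scrambled (0.31, SE 0.11, adjusted p = 0.0442 by limma). RA KD1 arrays read 11.51 and 11.36, against 11.14 and 11.26 in ESC KD1 (0.23, SE 0.11, adjusted p = 0.119 by limma). The Scrambled call was lost without ESC Scrambled replicate 1 (0.20, adjusted p = 0.225 by limma) and without RA Scrambled replicate 1 (0.23, adjusted p = 0.247 by limma).

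Socs3, the feedback inhibitor whose window above holds the STAT motif, fell in RA. It read 9.05 and 9.01 in RA Scrambled, against 9.79 and 10.83 in ESC Scrambled, and so was 2.42-fold lower in RA (-1.28, SE 0.31, adjusted p = 0.00902 by limma). RA KD1 arrays read 9.245 and 9.004, against 10.32 and 10.95 in ESC KD1, 2.85-fold lower in RA (-1.51, SE 0.31, adjusted p = 0.00409 by limma). The 4 RA arrays lay close together and below every ESC array of these lines, whereas the 2 ESC Scrambled arrays stood far apart; leaving out 1 array at a time put the Scrambled difference between -1.80 and -0.76, always with a call. The second Socs3 probe set, which was not used for the tests, read 7.12 and 7.08 in RA Scrambled, against 7.77 and 8.10 in ESC Scrambled, and 7.34 and 7.36 in RA KD1, against 7.92 and 8.22 in ESC KD1. Its RA Scrambled values lay below the median of every array, so it was not shown to be above background there.

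Counted over the 10 genes, 6 rose and 1 fell in RA Scrambled against ESC Scrambled, where 42.6% of all 19938 genes were called, 21.7% higher and 20.8% lower. In KD1, 7 rose and 2 fell, where 41.0% of all genes were called, 20.3% higher and 20.8% lower. The median log2 difference of the 10 was 0.50 in Scrambled and 1.13 in KD1, against -0.04 and -0.08 over all genes. With the spread taken over all 12 arrays, 3 members kept their call in Scrambled (Cntfr, Jak1 and Jak2) and 3 in KD1 (Lif, Lifr and Jak2). In the fit of 10 arrays, without the KD2 replicate 2 arrays, every member call in these lines stayed.

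**Figure D2:**
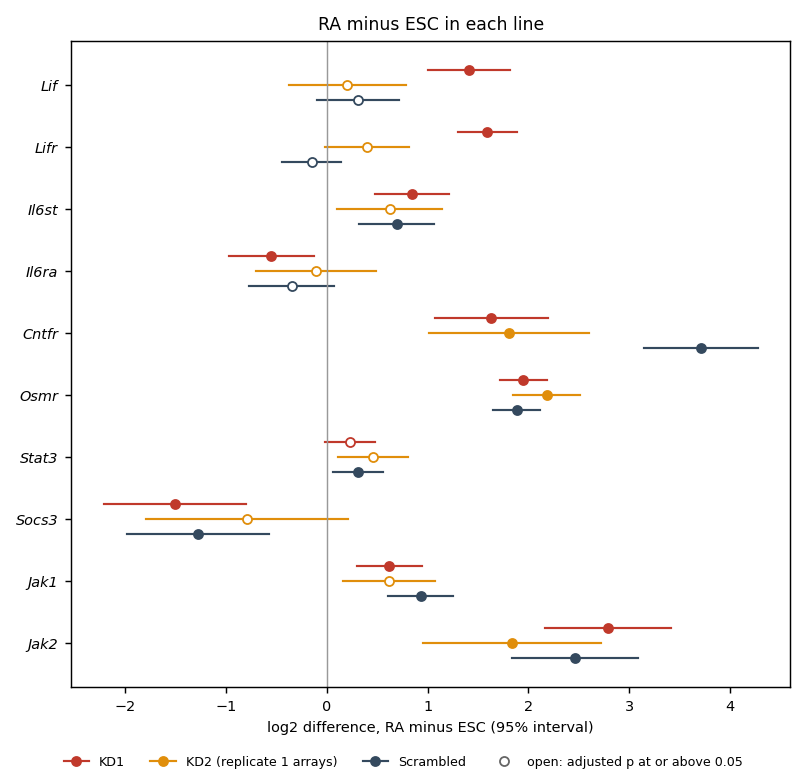
Difference between RA and ESC (horizontal axis, log2 units, points with 95% intervals from limma) for each gene (vertical axis) in KD1, in KD2 without the arrays that went against their labels, and in Scrambled; filled points passed an adjusted p below 0.05. Socs3 and Il6ra lie below 0 in all 3 lines, and for Lifr only the KD1 interval, 1.30 to 1.88, lies clear of the other lines.

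KD2 gave no RA difference with all 12 arrays, in which each KD2 group mixed both patterns: 0 of 10 members and 0 of 19938 genes (0% of all genes) were called by limma, with 0 members and 344 genes at an unadjusted p below 0.05. Without these replicate 2 arrays of KD2, 3 of 10 members were called, where 20.5% of all genes were called. Osmr read 8.02 in the remaining RA KD2 array, against 5.83 in the remaining ESC KD2 array (2.18, SE 0.15, adjusted p = 6.37e-05 by limma). Cntfr read 12.38, against 10.57 (1.81, SE 0.35, adjusted p = 0.00752 by limma), and with all 12 arrays the sign of its difference was the opposite, at -0.39. Jak2 read 9.58, against 7.74 (1.84, SE 0.39, adjusted p = 0.0111 by limma). KD2 then had 1 array per state, and its spread was taken from the remaining groups.

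The other members in these KD2 arrays were not called. Lifr read 10.67 in RA KD2 replicate 1, against 10.28 in ESC KD2 replicate 1 (0.40, 95% interval -0.02 to 0.82). Lif read 8.13, against 7.93 (0.20, interval -0.38 to 0.78), and Socs3 read 9.19, against 9.98 (-0.79, interval -1.79 to 0.21). In the displaced arrays the values lay with the opposite state for several members: Osmr read 5.93 in the array labelled RA KD2 replicate 2, against 7.78 in the array labelled ESC KD2 replicate 2, and Socs3 read 10.79, against 9.16.

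Between KD1 and Scrambled 3 of the genes passed the test, Lifr and Lif in RA and Cntfr in ESC. In RA, Lifr was 3.06-fold higher in KD1 than in Scrambled (12.02 and 12.19, against 10.55 and 10.43), a log2 difference of 1.61 (SE 0.13, adjusted p = 9.95e-05 by limma). Lif was 1.69-fold higher (8.87 and 8.94, against 8.36 and 7.95), a difference of 0.75 (SE 0.18, adjusted p = 0.0275 by limma). In RA 2 of 10 members were called in KD1, where 12.1% of all genes were called, and 4 members had an unadjusted p below 0.05. The Lif call was lost without RA Scrambled replicate 2 (0.55, adjusted p = 0.169 by limma), RA KD1 replicate 1 (0.79, adjusted p = 0.118 by limma) or RA KD1 replicate 2 (0.72, adjusted p = 0.183 by limma), and with 12 arrays (adjusted p = 0.0963 by limma), while the Lifr call stayed in each of these fits.

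KD2 did not share the Lifr level. RA KD2 replicate 1 read 10.67 for Lifr. The displaced array labelled RA KD2 replicate 2 read 10.72, but its ESC-like pattern leaves 1 array to describe KD2 in RA. KD2 minus KD1 in RA was -1.41 with all 12 arrays (SE 0.20, adjusted p = 0.0151 by limma) and -1.43 without the 2 displaced arrays (SE 0.16, adjusted p = 0.00194 by limma). Lifr was the 1 member of 10 called in either fit, where 1.34% and 3.72% of all genes were called. With 12 arrays the call was lost without RA KD1 replicate 1 (-1.49, adjusted p = 0.123 by limma), RA KD1 replicate 2 (-1.32, adjusted p = 0.191 by limma) or RA KD2 replicate 2 (-1.43, adjusted p = 0.0720 by limma). Against Scrambled in RA, KD2 Lifr stood at 0.18 without the displaced arrays (interval -0.18 to 0.55), and 0 of 10 members were called in KD2 in RA with 12 arrays (0.271% of all genes called) or with 10 (0.963%). At an unadjusted p below 0.05 the counts were 0 and 1 members, by limma.

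Cntfr differed between the lines in ESC. It read 10.39 and 9.53 in ESC KD1, against 8.93 and 8.48 in ESC Scrambled, without overlap (1.25, SE 0.25, adjusted p = 0.0415 by limma). It was the 1 of 10 members called in ESC, where 1.94% of all genes were called. The call was lost without ESC Scrambled replicate 2 (1.03, adjusted p = 0.120 by limma), without ESC KD1 replicate 1 (0.82, adjusted p = 0.114 by limma) and with 12 arrays (adjusted p = 0.790 by limma). ESC KD2 replicate 1 read 10.57, which is 1.86 above Scrambled (SE 0.30, adjusted p = 0.0281 by limma without the displaced arrays, where 0.988% of all genes and 1 of 10 members were called). With 12 arrays 0 of 10 were called by limma in this comparison (0.0853% of all genes, with 2 members at an unadjusted p below 0.05), and Cntfr stood at 2.83 (adjusted p = 0.359 by limma).

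In RA the order of Cntfr was different: 11.65 and 11.54 in RA KD1, 12.38 in RA KD2 replicate 1 and 12.44 and 12.40 in RA Scrambled. KD1 minus Scrambled was then -0.82 (SE 0.25, adjusted p = 0.0663 by limma), which did not pass. KD2 minus KD1 was not called for any member in ESC, with 0 of 10 in both fits by limma (0.130% of all genes called with 12 arrays and 2.19% with 10, and 2 and 1 members at an unadjusted p below 0.05).

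The change between RA and ESC was itself compared between KD1 and Scrambled. It differed for 3 of 10 members, where 4.82% of all genes were called. The Lifr difference was 1.74 larger in KD1 (SE 0.18, adjusted p = 0.00137 by limma), the Lif difference 1.10 larger (SE 0.26, adjusted p = 0.0442 by limma), and the Cntfr difference was smaller, at -2.08 (SE 0.35, adjusted p = 0.0123 by limma). Leaving out 1 array ended the Lif call in 7 of 8 cases, the exception being ESC Scrambled replicate 1, with adjusted p between 0.0502 and 0.186. It ended the Cntfr call without RA Scrambled replicate 1 (adjusted p = 0.0596 by limma), RA KD1 replicate 1 (adjusted p = 0.0540 by limma) or RA KD1 replicate 2 (adjusted p = 0.0791 by limma). With 12 arrays 0 of the 3 passed, Lifr coming nearest (adjusted p = 0.0575 by limma). Without the displaced KD2 arrays the 3 calls stayed.

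**Figure D3:**
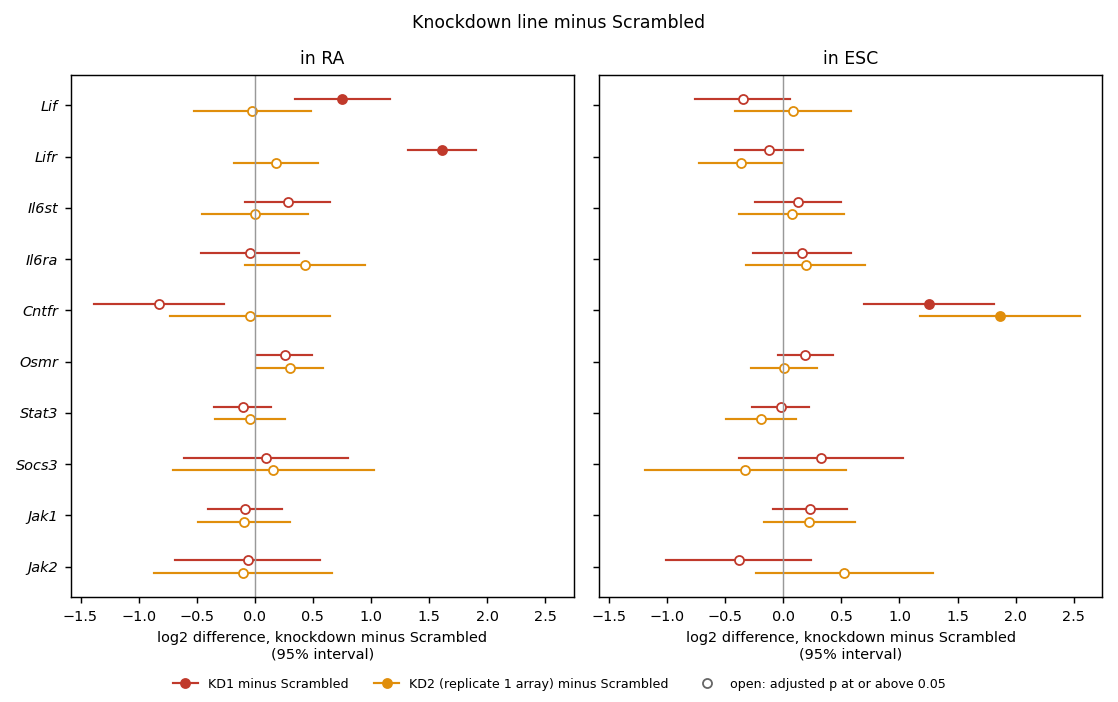
Difference between each knockdown line and Scrambled (horizontal axes, log2 units, points with 95% intervals from limma) in RA (left) and in ESC (right) for each gene; KD2 is its replicate 1 array, and filled points passed an adjusted p below 0.05. Filled points are Lif and Lifr for KD1 in RA and Cntfr for both lines in ESC.

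The remaining 7 members did not pass between KD1 and Scrambled in either state. Stat3 stood at -0.10 in RA (interval -0.35 to 0.14) and -0.02 in ESC (interval -0.27 to 0.22). Jak1 stood at -0.08 in RA (interval -0.41 to 0.24) and Il6st at 0.28 (interval -0.09 to 0.65). For Socs3 the intervals were wide, from -0.61 to 0.80 in RA and from -0.38 to 1.03 in ESC.

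Markers of extraembryonic endoderm (Gata6, Gata4, Sox17, Sox7, Dab2, Cubn) were, like Lifr and Lif, higher in RA KD1 than in RA Scrambled. By limma 6 of 6 were called, where 12.1% of all genes were called. Their summed signal was 14.76 and 14.83 log2 units in RA KD1, 13.31 in RA KD2 replicate 1, and 13.25 and 13.18 in RA Scrambled. In ESC the sums were 10.55 and 10.46 in KD1, 11.29 in KD2 replicate 1 and 10.01 and 9.87 in Scrambled, the same order as the Cntfr values there. In RA the order was not shared. Of KD1, KD2 replicate 1 and Scrambled, KD1 had the highest sums and the lowest Cntfr values (11.65 and 11.54). In RA Scrambled against ESC Scrambled 5 of the 6 markers rose, where 21.7% of all genes were called higher, while Lifr and Lif were not called. In ESC KD1 against ESC Scrambled 3 of 6 were higher, where 1.94% of all genes were called. Lifr (-0.13) and Lif (-0.35) were not called there. Fibroblast and mesenchyme markers summed to 11.48 and 11.28 in RA KD1 and 11.95 and 11.90 in RA Scrambled, with 3 of 4 lower in KD1. The blood cell list (Ptprc, Laptm5) summed to 10.61 and 10.61 in RA KD1 and 8.20 and 8.01 in RA Scrambled, with Laptm5 higher and Ptprc not called. In ESC the sums of this list were higher, at 11.99 and 12.03 in KD1 and 11.18 and 10.97 in Scrambled. Between RA KD1 and RA Scrambled, trophoblast and neural lists had 0 of 3 and 0 of 4 members called by limma, with 1 and 0 at an unadjusted p below 0.05. The part of these cells in the results was not tested, and in bulk RNA fewer cells of a type and less RNA per cell cannot be told apart.

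Lifr and Osmr are neighbours on chromosome 15, with Egflam, which encodes a matrix protein, on the other side of Lifr. These neighbours were examined after the Lifr values were seen. In RA, KD1 minus Scrambled was 2.09 for Egflam (SE 0.15, adjusted p = 6.23e-05 by limma), 0.26 for Osmr (SE 0.10, adjusted p = 0.164 by limma), 0.26 for Rictor (adjusted p = 0.441 by limma) and 0.17 for Gdnf (adjusted p = 0.409 by limma). Further out, Fyb (0.37, adjusted p = 0.0312 by limma) and C9 (0.73, adjusted p = 0.00828 by limma) were also higher in KD1. Wdr70 (-0.05, adjusted p = 0.881 by limma) and Nup155 (0.14, adjusted p = 0.419 by limma) were not called. Of all genes 12.1% were called in this comparison. Osmr and Rictor, which were not called, lay between Lifr and the called Fyb and C9. A cause shared by the region was not tested.

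Of 14 genes reported in mouse stem cells as STAT3 targets or as responsive to LIF, 8 fell and 0 rose in RA against ESC in Scrambled, with a list median of -0.70, where 20.8% of all genes were called lower and 21.7% higher and the median of all genes was -0.04. Tfcp2l1, a naive transcription factor, read 9.11 and 9.16 in RA Scrambled, against 11.70 and 12.01 in ESC Scrambled (-2.72, SE 0.13). Klf4, another factor of the naive network, read 8.87 and 9.15, against 10.65 and 10.88 (-1.76, SE 0.13). Pim3, a serine/threonine kinase (-1.23), and Klf5 (-1.22) also fell. In the fit of 12 arrays these 4 came to adjusted p between 0.0505 and 0.0586 by limma. This list was written from general knowledge with earlier results of these data known.

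In KD1, 8 of the 14 fell and 0 rose, with a median of -0.80, where 20.8% of all genes were called lower and 20.3% higher and the median of all genes was -0.08. Tfcp2l1 read 9.77 and 9.58 in RA KD1, against 12.21 and 12.35 in ESC KD1 (-2.61, SE 0.13). Bcl3, a co-regulator of NF-kappaB (-2.07), Gbx2 (-1.49) and Pim1 (-1.45) fell as well. Klf4 read 10.45 and 10.56 in RA KD1, against 10.82 and 10.94 in ESC KD1 (-0.37, adjusted p = 0.0523 by limma), and did not pass. Without the displaced arrays, which leaves KD2 with 1 array per state, the list median in KD2 was -0.78, against 0.014 over all genes.

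Between the lines in RA, 4 of the 14 were higher and 2 lower in KD1 than in Scrambled, where 12.1% of all genes were called. Klf4 was higher by 1.497 (SE 0.13, adjusted p = 0.000191 by limma) and Klf5 by 1.38 (SE 0.18), while Pim1 fell by 0.64 on the log2 scale (SE 0.10). Mycn was higher by 0.59 and lost its call without RA Scrambled replicate 1 (adjusted p = 0.186 by limma), RA KD1 replicate 1 (adjusted p = 0.120 by limma) or RA KD1 replicate 2 (adjusted p = 0.214 by limma). Klf4, Klf5, Pim1 and Mycn all lost their calls with 12 arrays (adjusted p from 0.134 to 0.738 by limma). All kept them without the displaced KD2 arrays. In ESC, where 1.94% of all genes were called, Gbx2 (1.28) and Bcl3 (0.79) were higher in KD1. Both calls were lost without either ESC KD1 replicate, and Gbx2 also lost its call without ESC Scrambled replicate 2. The change between RA and ESC differed between KD1 and Scrambled for Klf4 (1.39), Bcl3 (-1.10), Pim1 (-0.72) and Zfp57 (-0.55), 1 upwards and 3 downwards of 14. Over all genes 4.82% were called in this comparison. Leaving out 1 array ended the call of Zfp57 in 6 of 8 cases, of Pim1 in 5, of Bcl3 in 1 and of Klf4 in 0, and with 12 arrays all 4 were lost (adjusted p from 0.719 to 0.796 by limma). Without the displaced KD2 arrays Zfp57 lost its call, and Klf4, Bcl3 and Pim1 kept theirs.

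**Figure D4:**
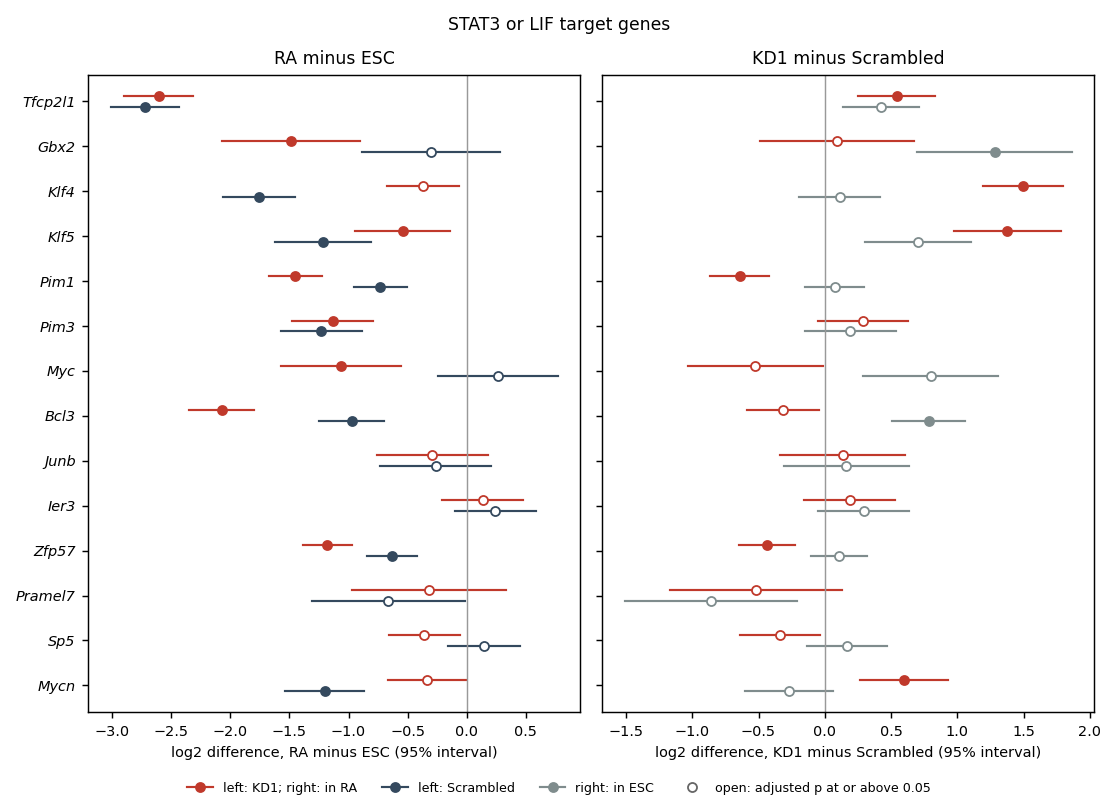
STAT3 or LIF target genes (vertical axis): left, the RA minus ESC difference in KD1 and in Scrambled; right, the KD1 minus Scrambled difference in RA and in ESC (horizontal axes, log2 units, points with 95% intervals from limma; filled points passed an adjusted p below 0.05). Tfcp2l1 stands at -2.61 in KD1 and -2.72 in Scrambled, whereas Klf4 stands at -0.37 in KD1 and -1.76 in Scrambled.

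Among 19 negative regulators and adaptors, 4 rose and 4 fell in RA Scrambled against ESC Scrambled, close to the shares of all genes (21.7% higher and 20.8% lower). Socs2, a SOCS family inhibitor best known for limiting growth hormone signalling, read 9.33 and 9.62, against 12.10 and 11.88 (-2.51, SE 0.12), and in KD1 9.49 and 9.37, against 12.32 and 12.32 (-2.89, SE 0.12). Pias3, an inhibitor of STAT3 binding to DNA, rose by 0.89 in Scrambled, with Pias1 (0.65) and Socs5 (0.64). In KD1, 2 rose and 4 fell, where 20.3% of all genes were higher and 20.8% lower. Ptpn11, the phosphatase SHP2 that is recruited to gp130, stood at 0.66 in KD1, and Pias3 at 0.66, its call being lost without ESC KD1 replicate 1 (adjusted p = 0.0513 by limma) or RA KD1 replicate 2 (adjusted p = 0.0567 by limma).

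Of 6 other kinases and STATs on the array, Stat4 fell in RA in Scrambled (-1.39) and in KD1 (-1.36), and Stat5b rose by 1.27 and 0.90. The Stat5b call was lost without RA Scrambled replicate 1 in Scrambled (adjusted p = 0.0807 by limma) and without ESC KD1 replicate 1 in KD1 (0.56, adjusted p = 0.275 by limma), as it was without either RA KD1 replicate. Of 7 other ligands, Osm (oncostatin M) and Ebi3 fell in both lines, Osm by 0.78 in Scrambled and by 0.89 in KD1, and Clcf1 rose in Scrambled (0.50), a call lost without RA Scrambled replicate 1 (adjusted p = 0.0954 by limma). Of 4 other receptors, Il31ra rose in Scrambled (0.58) and Csf3r fell in KD1 (-0.36). The Csf3r call was lost without ESC KD1 replicate 2 (adjusted p = 0.0691 by limma) or RA KD1 replicate 1 (adjusted p = 0.0903 by limma). All values of Osm, Ebi3, Il31ra and Csf3r lay below the median of every array. These genes were therefore not shown to be above background in either state. With 12 arrays the calls of Osm, Ebi3, Stat4 and Stat5b ended in both lines (adjusted p from 0.0578 to 0.186 by limma). Over these 50 genes outside the 10 members, 7 rose and 15 fell in Scrambled and 3 rose and 16 fell in KD1. In all genes 21.7% were higher and 20.8% lower in Scrambled, and 20.3% and 20.8% in KD1, so the total called in these lists was near that of all genes. Between the lines, 3 of 50 were higher and 0 lower in KD1 in ESC, where 1.94% of all genes were called, the third being the adaptor Shc1 (0.57), whose call was lost without ESC Scrambled replicate 2 or either ESC KD1 replicate.

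Patterns most like those of 4 members were sought over the 10 arrays left after removing the displaced ones, as the root mean square difference between centred log2 values. Nearest to Lifr were Ppp1r16b (0.127), Mtarc2 (0.158) and Wnk2 (0.163), against a standard deviation of 0.680 for Lifr itself. Nearest to Lif were Nt5dc3 (0.0988), Hsdl1 (0.122) and Txndc5 (0.142), against 0.514 for Lif. Crtac1 (0.164), Kcnip2 (0.182) and H1f6 (0.187) were nearest to Socs3, whose standard deviation was 0.756. For Stat3, which varied by 0.192, the nearest were Clk3 (0.0694), Zfp623 (0.0699) and Eif1b (0.0703).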

How the data were processed

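Total RNA of 12 samples was hybridised to Affymetrix gene arrays, 1 array each. The deposited values are log2 expression, made by the authors with RMA per the submitters' processing notes; the version is not given in the sources used here. Of 35556 probe sets, 21789 carried 1 gene symbol, 1621 several and 12146 were not listed in the annotation used. The brightest probe set with 1 symbol stood for each of 19938 genes. Array medians ran from 7.17 to 7.24, and with 2 arrays a group the number of arrays limits the precision.

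Groups were compared with limma 3.58.1 in R 4.3.3, as group means with trended empirical Bayes and Benjamini-Hochberg adjustment over all 19938 genes, a call being an adjusted p below 0.05. Comparisons of KD1, Scrambled and the states used 8 arrays; those with KD2 used 12, and 10 as an alternative. The script was tested on simulated data. Sequences came from RefSeq (GRCm38.p6), and figures were drawn with matplotlib 3.10.9.

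The members and lists were chosen with earlier results of these data known. All members are named; of each list up to 4 called genes with the largest change are named, or the most changed one, and further names were chosen after their values were seen. Alternatives were the other array sets, array centring, a filter on dim genes, the mean of all probe sets of a gene, a block for the replicate number and leaving out each array. The main tests held no term for the replicate number, although replicate differences correlated at 0.633 between the ESC lines of KD1 and Scrambled.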

Additional observations from a re-analysis of the deposited data

Results flagged for a closer look

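The change between RA and ESC differed between KD1 and Scrambled, by limma's test of the difference itself, for 3 of 10 members. Of all genes 4.82% were called. The values, as KD1 minus Scrambled on the log2 scale, were 1.74 for Lifr (SE 0.18, adjusted p = 0.00137 by limma), 1.10 for Lif (SE 0.26, adjusted p = 0.0442 by limma) and -2.08 for Cntfr (SE 0.35, adjusted p = 0.0123 by limma). Among the STAT3 or LIF targets the same test was passed by Klf4, at 1.39 (SE 0.19, adjusted p = 0.00463 by limma), Bcl3, at -1.10 (SE 0.17, adjusted p = 0.00852 by limma), Pim1, at -0.72 (SE 0.14, adjusted p = 0.0226 by limma), and Zfp57, at -0.55 (SE 0.13, adjusted p = 0.0498 by limma). Leaving out 1 of the 8 arrays at a time ended the call of Lif in 7 cases, Zfp57 in 6, Pim1 in 5, Cntfr in 3, Bcl3 in 1, and Lifr and Klf4 in 0. With the spread taken over 12 arrays none of the 7 genes passed by limma, with adjusted p from 0.0575 (Lifr) to 0.796 (Zfp57). In the fit of 10 arrays, without the displaced KD2 arrays, Zfp57 lost its call and the other genes kept theirs.

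The 2 knockdown lines differed in RA for Lifr, where KD2 minus KD1 was -1.41 (SE 0.20, adjusted p = 0.0151 by limma). Leaving out 1 array at a time put that difference between -1.49 and -1.32, and the call was lost in 3 of 4 cases. Both arrays labelled RA KD2 lay below both RA KD1 arrays. Replicate 2 went against its label, with a mean correlation of 0.986 with ESC-labelled arrays and a stem cell marker sum of 14.34. Only replicate 1 can therefore describe KD2 in RA. Summed endoderm marker signal was 13.31 in that array, against 14.76 and 14.83 in RA KD1, and 11.17 in replicate 2. The part of the endoderm signal in the Lifr difference was not tested.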

How the results depend on the processing

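Using all 12 arrays for the spread left 3 of 10 members and 2751 genes called for RA against ESC in Scrambled, and 3 members and 2249 genes in KD1. For KD1 against Scrambled it left 0 members and 13 genes in ESC, and 1 member and 463 genes in RA. For the difference between the lines' changes it left 0 members and 52 genes, by limma. With only the displaced KD2 arrays removed, these counts stayed near those from KD1 and Scrambled arrays alone, given in brackets. RA against ESC gave 8496 genes in Scrambled (8485) and 8179 in KD1 (8183). KD1 against Scrambled gave 383 genes in ESC (387) and 2407 in RA (2408). The difference between the lines' changes gave 961 genes in both fits, and all these member counts were unchanged. Without the displaced KD2 arrays, RA against ESC in KD2 gave 3 members and 4090 genes, with Cntfr at 1.81 in place of -0.39; KD2 against Scrambled gave 1 member and 197 genes in ESC and 192 genes in RA, and KD2 against KD1 gave 437 genes in ESC and 742 in RA. Leaving out dim genes gave 4 genes for KD2 against Scrambled in ESC and 7 in RA.

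Replicate differences (replicate 2 minus replicate 1) correlated at 0.633 between the ESC lines of KD1 and Scrambled, so these arrays shared a replicate pattern. The correlation was 0.15 between RA lines and from -0.0193 to 0.068 between states, where pairing by number was not shown. With the replicate block, KD1 against Scrambled gave 2100 genes in ESC, and 4 members and 4797 genes in RA, where Cntfr (-0.82, adjusted p = 0.000287 by limma) and Il6st (0.28, adjusted p = 0.0210 by limma) passed beside Lif and Lifr; the difference between the lines' changes gave 2874 genes, KD2 against Scrambled in ESC gave 2, and KD2 against KD1 in ESC gave 0.

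Leaving out 1 array at a time gave 5 to 7 members and 6294 to 8106 genes for RA against ESC in Scrambled, 7 to 9 and 5550 to 6848 in KD1, and 0 and 0 in KD2. For KD1 against Scrambled the ranges were 0 to 1 members and 131 to 576 genes in ESC, and 1 to 2 and 726 to 1373 in RA. For KD2 against Scrambled they were 0 members and 3 to 15 genes in ESC, and 0 and 5 to 1018 in RA. For KD2 against KD1 they were 0 members and 0 genes in ESC, and 0 to 1 and 30 to 1254 in RA. For the difference between the lines' changes they were 1 to 3 members and 303 to 1156 genes. Why the counts moved when 1 array was left out was not tested.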
